A study of Mus musculus with 6 samples.

Results

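The 10 genes described here encode the coactivators YAP and TAZ (Yap1 and Wwtr1), their DNA-binding partners of the TEAD family (Tead1, Tead2 and Tead4), and 5 genes commonly used as readouts of YAP/TAZ activity (Cyr61, Ctgf, Ankrd1, Amotl2 and Lats2). They were taken by gene symbol from the 17933 genes of the deposited table, and all 10 were found, Cyr61 and Ctgf under their newer symbols Ccn1 and Ccn2. Kidney RNA came from male wild-type C57BL/6 mice that were 6 to 8 weeks old, and the labels name no transgene or deletion in either group. The 3 stone samples came from mice injected into the peritoneum with glyoxylic acid, an oxalate precursor, at 120 mg/kg daily for 12 days, which gives calcium oxalate crystals in the kidney. The 3 control samples came from mice given the same volume of saline and are labelled day 12 as well. The comparison of the groups asks which transcripts differ between stone and control kidneys. The labels do not say that each sample is a separate mouse, so the tests rest on sample-to-sample spread that could be technical.

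YAP and TAZ have no DNA-binding domain of their own and act on genes by binding TEAD proteins. In the Hippo pathway the kinases MST1 and MST2 activate LATS1 and LATS2, which phosphorylate YAP and TAZ and so keep them out of the nucleus. Stiff matrix, cell spreading and lost cell contacts favour nuclear YAP and TAZ, and in kidney they have been linked to tubule repair and fibrosis. Because control runs through protein phosphorylation and location, transcript levels do not report YAP/TAZ activity directly.

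The TEAD binding element is centred on GGAATG, or CATTCC on the other strand, and promoters of readout genes in which these letters were found are shown first. RefSeq (GRCm38.p6) windows from 250 bases before to 50 bases from the start site were at hand for 7 of the 10 genes, without Ctgf, Tead1 and Tead4, and 6 of the 7 held the motif on either strand in at least 1 window. Of all 27025 genes with a window 16.6% held it, as did 8 of 23 (34.8%) of the other Hippo pathway genes and 3 of 11 (27.3%) of the other YAP/TAZ target genes described further on. The 250 bases before the start site of 3 readout genes are given 5′ to 3′ on the strand of the gene, with the motif in capitals. They lie at chr3:145649986-145650235 on the minus strand for Cyr61, chr19:36119845-36120094 on the minus strand for Ankrd1 and chr9:102717554-102717803 on the plus strand for Amotl2, whose window belongs to an annotated start site at 102717804 that lies inside the span of the gene. The start sites used for Yap1 (8004596) and Lats2 (57746123) likewise lie inside their genes.
Cyr61: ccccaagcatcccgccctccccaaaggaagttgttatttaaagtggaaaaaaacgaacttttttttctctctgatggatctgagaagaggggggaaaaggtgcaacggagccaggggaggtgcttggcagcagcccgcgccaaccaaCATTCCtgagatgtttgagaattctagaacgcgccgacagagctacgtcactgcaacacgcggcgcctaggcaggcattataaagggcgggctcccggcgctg
Ankrd1: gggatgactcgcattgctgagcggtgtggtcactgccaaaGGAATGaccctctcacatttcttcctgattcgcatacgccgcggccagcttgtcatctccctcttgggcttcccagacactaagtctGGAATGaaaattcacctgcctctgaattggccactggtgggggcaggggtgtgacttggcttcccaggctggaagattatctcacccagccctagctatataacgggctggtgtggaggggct
Amotl2: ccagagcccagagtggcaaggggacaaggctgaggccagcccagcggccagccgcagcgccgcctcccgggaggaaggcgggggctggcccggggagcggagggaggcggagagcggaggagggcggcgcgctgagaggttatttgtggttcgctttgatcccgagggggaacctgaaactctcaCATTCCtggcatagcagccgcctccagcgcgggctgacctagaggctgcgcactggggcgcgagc

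The motif began 103 bases before the start site in Cyr61, 65 bases before it in Amotl2, and 210 and 123 bases before it in Ankrd1. Yap1, Wwtr1 and Lats2 held it once each, shown as 30 bases around the match at chr9:8004720-8004749, chr3:57576029-57576058 and chr14:57746102-57746131, all on the minus strand.
Yap1: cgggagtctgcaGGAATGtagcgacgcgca
Wwtr1: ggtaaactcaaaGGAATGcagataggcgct
Lats2: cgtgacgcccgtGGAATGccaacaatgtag
In Lats2 the match began at base 5 after the start site, and a second Lats2 window had none. In Wwtr1 the same match lies in both annotated windows, 136 and 170 bases before their start sites, and in Yap1 it lies 141 bases before the start site. Tead2 had no match in its window. The letters TGANTCA, which mark the AP-1 element and do not overlap the TEAD motif, were in 0 of the 7 genes and in 8.97% of all genes with a window. A match describes the sequence and does not show that a TEAD protein binds there.

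Expression was measured as FPKM, in which fragments are scaled by the length of a gene and by a sample's total. FPKM sums lay between 711768 and 758514 in control samples and between 609705 and 613885 in stone samples, and the sequencing depth behind them is unknown. Genes averaging 1 FPKM or more over the 6 samples were compared by limma on log2(FPKM + 1), which understates the change of low genes. A gene was called when its Benjamini-Hochberg adjusted p over the 12319 tested genes was below 0.05. The median change of all tested genes was 0.21 on the log2 scale, and 75.8% of calls were higher in stone. Median-of-ratios scaling put that median at 0.01 with 49.0% of calls higher, quantile normalization at -0.03 with 47.0%, and equal FPKM sums at 0.45 with 91.4%. Markers of the labelled tissue were present in every sample: the summed FPKM of 7 proximal tubule genes, most of it from the phosphate transporter gene Slc34a1 (means of 2617 and 1661 FPKM), was 3643 to 4072 in control and 2430 to 2883 in stone samples. Of the 7, Aqp1 and Slc5a2 had higher means in stone and were not called.

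Stone kidneys held more RNA of Wwtr1, Tead1 and Tead2 and of 4 of the 5 readout genes. The smaller rise of Yap1 depended on the scaling. Among these readouts, Amotl2 was not called when values were scaled by median of ratios, nor with control 1 or control 2 left out. Ctgf was not called with control 2 left out. Ankrd1 rose most, from 1.28 ± 0.173 to 9.78 ± 1.79 FPKM (SD, n = 3 each), and Ctgf rose from 29.7 ± 15.2 to 67.0 ± 13.9 FPKM. Mean FPKM of Tead1 was 2.09 times and that of Tead2 2.39 times as high, Wwtr1 rose by 0.61 and Yap1 by 0.26 on the log2 scale. Cyr61, in contrast, spread over a wide range among the controls and was not called. Of the 9 tested genes 8 were called higher and 0 lower, where 57.4% of all tested genes were called, 43.5% higher and 13.9% lower. In the same 8 genes the groups did not overlap and the stone values were the higher ones, where the groups of 66.3% of all tested genes did not overlap, with stone higher in 49.8% and lower in 16.5%. The median change of the 9 was 0.73. Tead4 was too low to be tested, so these counts do not cover it. In whole kidney, more cells of a type and more RNA per cell cannot be told apart.

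**Figure D1:**
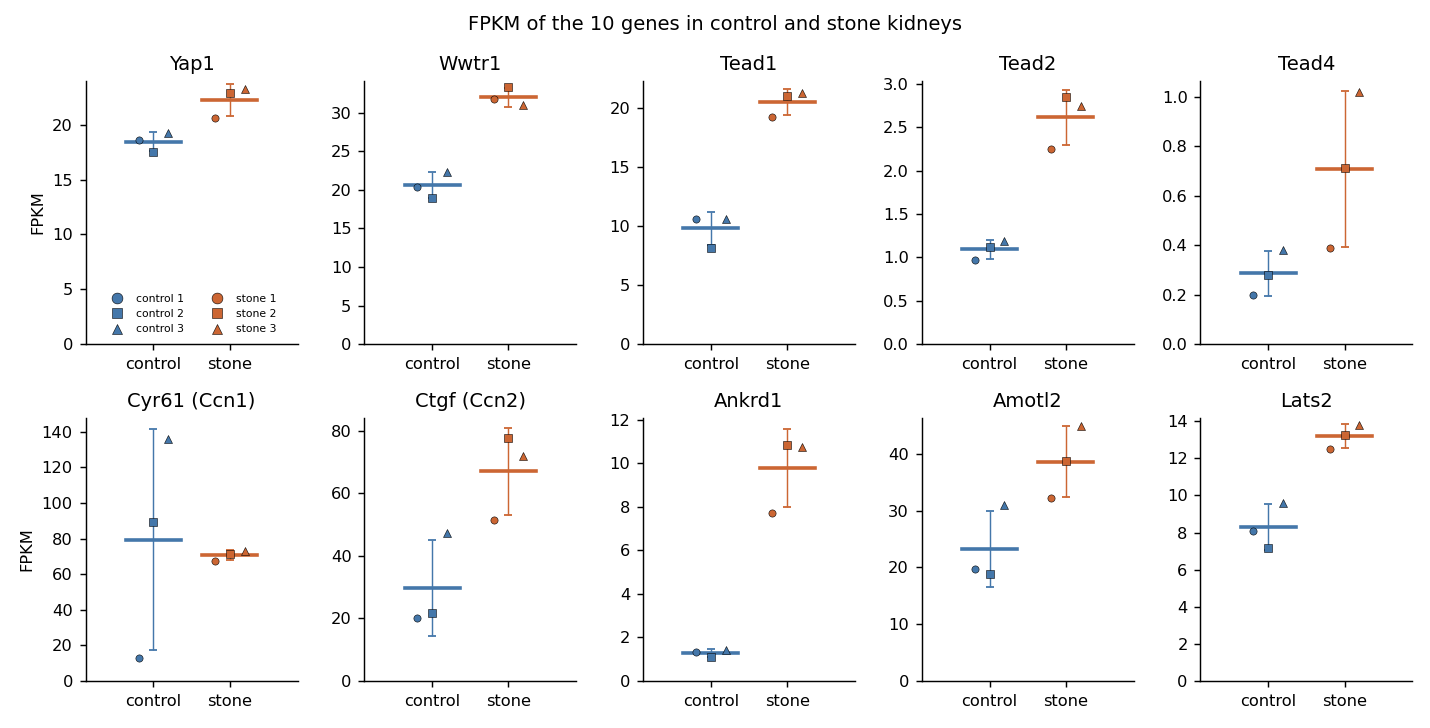
FPKM (vertical axes, from 0) of the 10 genes in control (blue) and stone (orange) kidneys; points are samples, thick bars the mean and whiskers the SD of 3 samples. The groups are apart in every panel except that of Cyr61, where control 1 is at 12.87 and control 3 at 135.98.

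Of the coactivators, Wwtr1 changed clearly and Yap1 little. Wwtr1, which encodes TAZ and lies on chromosome 3 from 57455644 to 57575910, had FPKM of 20.41, 18.99 and 22.36 in the controls (1 to 3, the order used throughout) and 31.7, 33.36 and 30.95 in the stone kidneys. The lowest stone value was 1.38 times the highest control value. On the log2 scale it rose by 0.61 (SE 0.074, limma, adjusted p = 0.000594), at percentile 82.2 of all tested genes. Yap1, on chromosome 9 from 7931999 to 8004638, measured 18.59, 17.5 and 19.25 FPKM in control and 20.62, 22.88 and 23.23 in stone samples. The groups did not overlap, but stone 1 was only 1.07 times the highest control. Exons of Yap1 overlap Gm20416, an opposite-strand transcript without a row in the table. The Yap1 change of 0.26 (SE 0.071, limma, adjusted p = 0.0183) was near the median of all tested genes, at percentile 55. It was not called after median-of-ratios scaling (0.03, adjusted p = 0.677) or quantile normalization (0.07, adjusted p = 0.39), nor without control 1, control 2, stone 2 or stone 3 (adjusted p from 0.0505 to 0.0682).

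In these samples the balance between the coactivator transcripts lay further toward Wwtr1 in stone kidneys. The Wwtr1 to Yap1 ratio of FPKM was 1.10, 1.09 and 1.16 in the controls and 1.54, 1.46 and 1.33 in the stone kidneys. Every stone ratio was above every control ratio, and within stone kidneys the ranges of Wwtr1 and Yap1 FPKM no longer overlapped, as they had in control kidneys. The log2 ratio was higher by 0.36 in stone (exact permutation test, two-sided, p = 0.1, n = 3 each, which is the smallest p that 3 against 3 samples allow). Apart from the pseudocount, a ratio within a sample does not depend on a scaling by 1 factor per sample, and after quantile normalization the difference was 0.38.

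The TEAD genes encode the transcription factors that carry YAP and TAZ to DNA. Tead1, on chromosome 7 from 112679356 to 112906784, measured 10.65, 8.19 and 10.62 FPKM in control and 19.29, 21.05 and 21.28 in stone samples. It rose by 1.00 (SE 0.106, limma, adjusted p = 0.000342) and every stone value exceeded every control value. Tead2, on chromosome 7 from 45215792 to 45233468, was scarce, with 0.97, 1.12 and 1.19 FPKM in control and 2.25, 2.85 and 2.74 in stone samples. It rose by 0.79 (SE 0.114, limma, adjusted p = 0.00129), with groups that did not overlap, and by 1.18 with a pseudocount of 0.1, where Tead1 rose by 1.07. Exons of Tead2 overlap those of Cd37, a leukocyte gene on the opposite strand, and whether fragments were assigned by strand is not given in the sources at hand. Cd37 itself measured 0.87 to 1.92 FPKM in control and 1.12 to 1.9 FPKM in stone samples, with overlapping groups. Tead4, on chromosome 6 from 128227143 to 128300813, measured 0.2, 0.28 and 0.38 FPKM in control and 0.39, 0.71 and 1.02 in stone samples. These values are under the level for testing, and the lowest stone value barely exceeded the highest control value. With no filter on low values the Tead4 change was 0.39 (limma, adjusted p = 0.0621).

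Tead3, the remaining family member and one of the other Hippo pathway genes, changed less than Tead1, and the makeup of the family shifted. It measured 9.06 to 9.32 FPKM in control and 10.7 to 13.78 FPKM in stone samples, a log2 change of 0.36 (limma, adjusted p = 0.0151) that was lost after median-of-ratios scaling (0.14, adjusted p = 0.185) and quantile normalization (0.08, adjusted p = 0.405). Tead1 made up 48.0 ± 3.64% of the summed TEAD FPKM in control and 57.3 ± 2.21% in stone kidneys (SD, n = 3 each), and Tead3 fell from 45.2 ± 2.95% to 33.5 ± 1.71% of it. The summed FPKM of the 4 TEAD genes was 18.65 to 21.51 in control and 32.63 to 38.82 in stone samples. These shares are a description without a test, chosen after the values were seen.

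**Figure D2:**
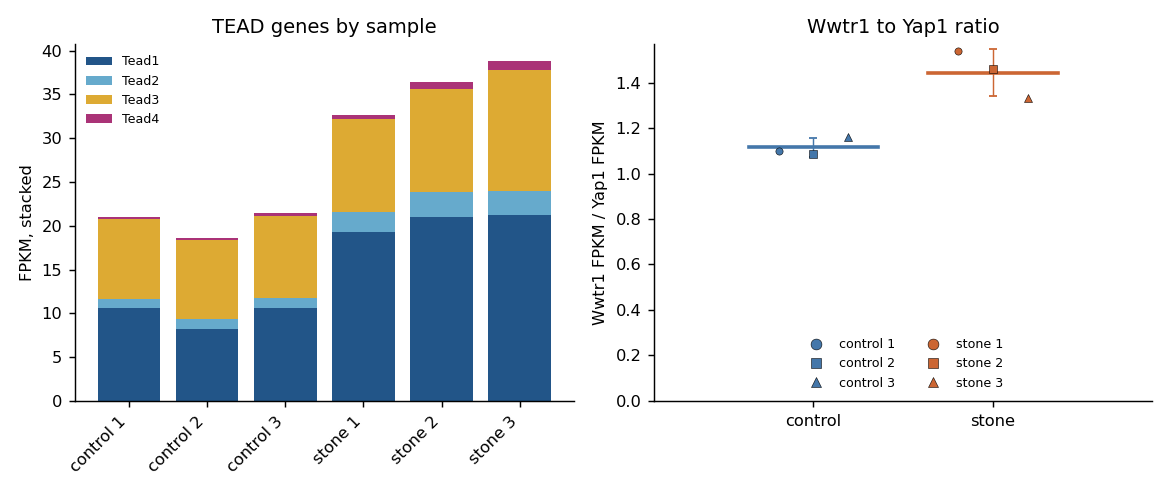
Left, FPKM of Tead1 to Tead4 stacked for each sample; right, the ratio of Wwtr1 to Yap1 FPKM for each sample, with the mean (thick bar) and SD (whiskers) of 3 samples. The stacks are higher in stone samples, mostly through Tead1, and the ratio is 1.33 to 1.54 in stone against 1.09 to 1.16 in control samples.

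Among the readout genes, Ankrd1 gave the clearest difference. It encodes a nuclear and sarcomeric ankyrin repeat protein known from stressed heart muscle, and lies on chromosome 19 from 36111965 to 36119844. It measured 1.32, 1.09 and 1.43 FPKM in control and 7.71, 10.86 and 10.76 in stone samples. Controls lay close together and far below all stone values, and the mean was 7.64 times as high in stone. Its rise of 2.23 on the log2 scale (SE 0.140, limma, adjusted p = 4.58e-05) was at percentile 99.3 of all tested genes, and it was called under each of the 14 alternatives.

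Ctgf, which encodes a matricellular protein that promotes matrix production in fibrosis, lies on chromosome 10 from 24595442 to 24598683. It measured 20.25, 21.58 and 47.28 FPKM in control and 51.38, 77.78 and 71.89 in stone samples. Control 3 stood well above the other controls and close to stone 1, so the groups were separated by a narrow gap. It rose by 1.23 on the log2 scale (SE 0.318, limma, adjusted p = 0.0137). It was lost without control 2 (1.06, adjusted p = 0.0529) and was 1.61 without control 3 (adjusted p = 0.00123). Exons of Ctgf overlap Gm15270, a transcript of the opposite strand that has no row of its own in the table.

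Amotl2 and Lats2 are readout genes whose products restrain YAP and TAZ. Amotl2 encodes an angiomotin family protein that holds YAP at cell junctions, and lies on chromosome 9 from 102717091 to 102733418. It measured 19.8, 18.86 and 30.96 FPKM in control and 32.28, 38.78 and 44.9 in stone samples, with control 3 again the highest control and near stone 1. The change of 0.73 (SE 0.198, limma, adjusted p = 0.0162) was lost after median-of-ratios scaling (0.51, adjusted p = 0.0515) and without control 1 or control 2 (adjusted p = 0.0566 and 0.0584). Lats2, the kinase gene on chromosome 14 from 57689662 to 57746212, measured 8.1, 7.18 and 9.61 FPKM in control and 12.53, 13.27 and 13.82 in stone samples. Stone values lay close together above all controls, and the change of 0.62 (SE 0.104, limma, adjusted p = 0.00234) was called under each of the 14 alternatives. GENCODE M21 places another protein-coding gene, Gm49361, over exons of Lats2 on the same strand, and how shared fragments were assigned is not given in the sources at hand.

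**Figure D3:**
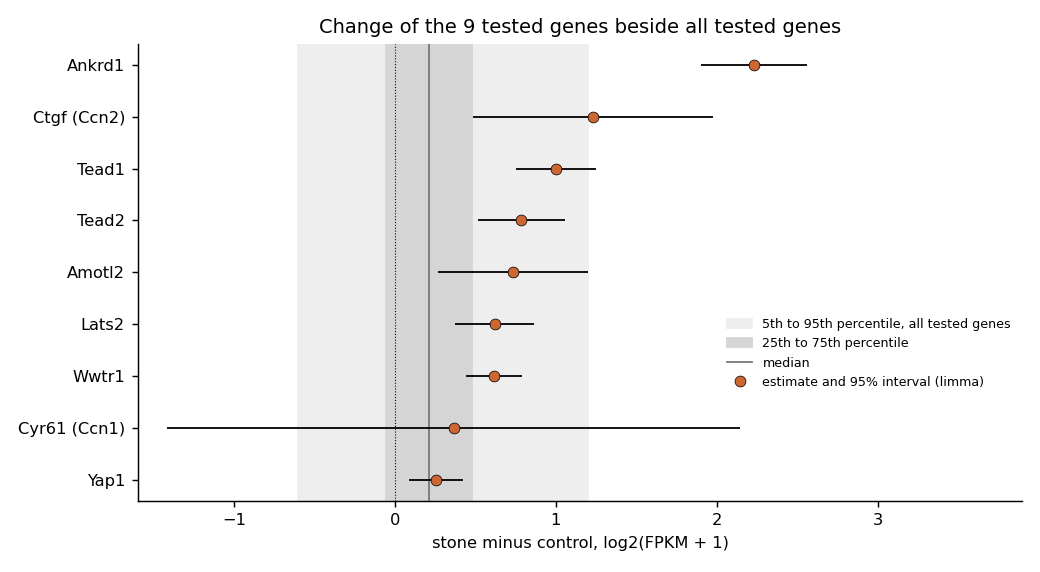
Log2 change (stone minus control, horizontal axis) of the 9 tested genes with 95% limma intervals, over the spread of all tested genes (dark grey, 25th to 75th percentile, from -0.05 to 0.48; light grey, 5th to 95th, from -0.61 to 1.20). The estimates of Ankrd1 and, narrowly, of Ctgf lie beyond the light band, that of Yap1 near the median line, and the Cyr61 interval runs from -1.42 to 2.15.

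Cyr61, which encodes a matricellular protein related to Ctgf and is induced within minutes by serum and stress as well as by YAP, did not show the pattern of the other readouts. The gene lies on chromosome 3 from 145646971 to 145649985. Its FPKM were 12.87, 89.06 and 135.98 in the controls and 67.38, 71.46 and 72.77 in the stone kidneys. The controls differed by 10.6 times between lowest and highest and enclosed the stone samples, which differed by 1.08 times. The log2 change was 0.37 with a 95% interval from -1.42 to 2.15 (limma, adjusted p = 0.7). Mean FPKM went the other way, with 79.3 ± 62.1 in control and 70.5 ± 2.81 in stone kidneys (SD, n = 3 each). The direction on the log2 scale rested on control 1: without it Cyr61 was lower in stone, by -0.64 (limma, adjusted p = 0.0257). The spread of Cyr61 over controls, on FPKM + 1, was at percentile 99.9 of all tested genes, against 99.1 for Ctgf, 96.3 for Amotl2 and 51.3 for Ankrd1.

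Immediate early genes, the transcription factors and feedback genes switched on fastest by stimulation or handling of tissue, showed the same order of the controls. Fos measured 0.92, 33.4 and 68.91 FPKM in control and 15.13, 17.11 and 25.78 in stone samples, and Egr1 measured 3.02, 42.89 and 136.23 FPKM in control and 27.99, 39.76 and 41.25 in stone samples. Of 9 such genes, chosen after the Cyr61 values were seen, control 1 was the lowest control and control 3 the highest in 9, and 0 were called by limma (0 also at an unadjusted p under 0.05). Summed over the 9, FPKM were 52.1, 364 and 743 in the controls and 246, 285 and 347 in the stone kidneys. Among the 10 genes described here control 1 was the lowest control in 4 (Tead2, Tead4, Cyr61 and Ctgf) and control 3 the highest in 9, all but Tead1. The share of all tested genes with such an order was not counted. Median-of-ratios factors of the controls were 0.926, 0.903 and 0.940, so control 3 was also the highest control by this factor. Whether the spread of immediate early genes between control samples has a part in the Cyr61 and Ctgf values was not tested. The Ctgf to Cyr61 ratio of FPKM ran from 0.242 to 1.57 in control and from 0.763 to 1.09 in stone samples, and its log2 value did not differ beyond that spread (0.87, exact permutation test, two-sided, p = 0.4, n = 3 each).

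**Figure D4:**
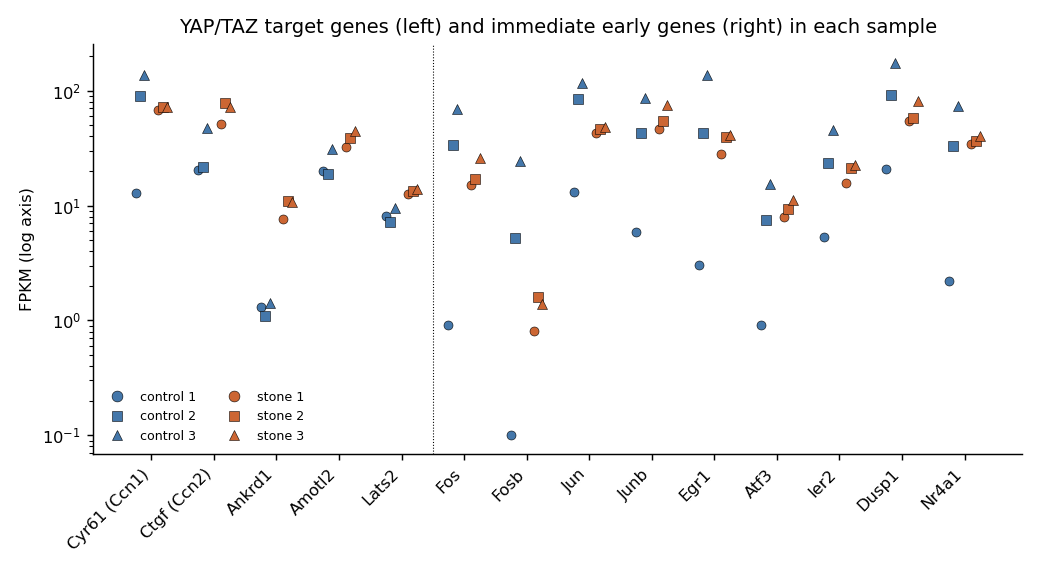
FPKM on a log axis of the 5 readout genes (left of the dotted line) and 9 immediate early genes (right) in each control (blue) and stone (orange) sample. Control 1 is the lowest sample for Cyr61 and for each of the 9 immediate early genes, and Ankrd1 and Lats2 show no such spread.

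The nearest profiles over the 6 samples also set the readout genes apart from each other. Likeness was measured as the root mean square difference of log2(FPKM + 1) values centred on each gene's mean. Cyr61 was most like Atf3, Jun and Btg2 (0.25, 0.27 and 0.27), which are themselves stress-induced early genes. Ctgf was most like Gucy1a1, Ets1 and Spry1 (0.14, 0.15 and 0.16), and Ankrd1 was most like Flna, Osmr and Uhrf1 (0.06, 0.11 and 0.13). All 6 points are shared between these genes, so likeness describes these samples only.

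In order of level, Cyr61 was the highest of the 10 genes by mean in both groups and Tead4 the lowest, on the FPKM scale. In control kidneys the ranges of neighbours overlapped from Cyr61 through Ctgf, Amotl2, Wwtr1 and Yap1, so their order is not settled. Tead1 and Lats2 overlapped each other, below Yap1, as did Ankrd1 and Tead2 at the bottom above Tead4. In stone kidneys Ctgf was apart from Amotl2, Wwtr1 from Yap1, Tead1 from Lats2, Lats2 from Ankrd1, Ankrd1 from Tead2 and Tead2 from Tead4, while Cyr61 with Ctgf, Amotl2 with Wwtr1, and Yap1 with Tead1 overlapped.

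The other genes of the Hippo pathway also tended higher, most of them upstream regulators. Of 28 listed genes 25 were tested, 20 were called higher and 0 lower, with a median change of 0.65, where 43.5% of all tested genes were called higher and their median was 0.21. After median-of-ratios scaling 16 were called higher (23.9% of all tested genes) and after quantile normalization 14 (22.4%). In either setting 0 were called lower, against 24.9% and 25.3% of all tested genes. Ajuba, a LIM protein that inhibits LATS kinases, rose from 8.36 ± 1.15 to 29.2 ± 2.81 FPKM (SD, n = 3 each), a log2 change of 1.69 (limma, adjusted p = 5.04e-05). Wwc1, the KIBRA scaffold that activates LATS, rose from 57.3 ± 6.26 to 139 ± 2.62 FPKM. The RASSF family gene Rassf1 rose by 0.92, and Limd1, a relative of Ajuba, by 0.65. Genes whose products restrain LATS kinases and genes whose products activate them were both among those called.

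The core kinases and their adaptors did not all pass, and they were named after their values were seen. Stk4, which encodes MST1, rose from 7.06 ± 0.486 to 10.4 ± 0.557 FPKM (SD, n = 3 each) with a log2 change of 0.50 (limma, adjusted p = 0.00164). Mob1a, which encodes a LATS coactivator, rose by 0.82 (limma, adjusted p = 0.000781), and its paralog Mob1b had a change of 0.17 (adjusted p = 0.402). Stk3, which encodes MST2, was at 9.25 ± 0.492 and 9.62 ± 1.65 FPKM (adjusted p = 0.79). Lats1, the paralog of Lats2, had a change of 0.18 that did not pass (limma, adjusted p = 0.0602), and it was called only with equal FPKM sums (0.43, adjusted p = 0.00234). Nf2, which encodes the upstream regulator merlin, had a change of 0.15 (limma, adjusted p = 0.0556) and was called with no filter and with equal FPKM sums (adjusted p = 0.0446 and 0.00114). Sav1, the MST adaptor gene, was called at 0.27 (limma, adjusted p = 0.0333), a call lost after median-of-ratios scaling (0.05) and quantile normalization (0.10), with the replicate block, and without any 1 of control 1, 2 or 3 or stone 2 or 3. Fat4, Dchs1 and Vgll3 were too low to be tested.

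A further 17 genes belong to a published signature of YAP/TAZ target genes that also holds 5 of the genes above. Of these 17, 15 were tested, 12 were called higher and 0 lower, and the median change was 0.92, against 43.5% called higher and a median of 0.21 over all tested genes. After median-of-ratios scaling 10 were called higher and 0 lower, where 23.9% of all tested genes were called higher and 24.9% lower. After quantile normalization 10 were called higher and 1 lower, against 22.4% and 25.3% of all tested genes. Myof, a membrane repair protein gene, rose most of the list, from 3.21 ± 0.487 to 31.2 ± 4.79 FPKM (SD, n = 3 each; log2 change 2.93, limma, adjusted p = 1.42e-05). Axl, a receptor tyrosine kinase gene, rose from 5.39 ± 1.10 to 23.4 ± 4.80 FPKM. Fjx1, Arhgef17 and Crim1 rose by 1.10, 0.92 and 0.87. Igfbp3 was not called (0.16, limma, adjusted p = 0.698), with 55.71, 54.71 and 135.63 FPKM in control and 81.6 to 85.3 FPKM in stone samples. Without control 3, the control that was also high for Ctgf and Amotl2, it was called higher at 0.58 (limma, adjusted p = 0.000788). That setting was singled out after the values were seen, and Igfbp3 stays among the genes not called. Dock5 was not called (0.02), was called lower on quantile-normalized values, at -0.32 (limma, adjusted p = 0.00853), and higher with equal FPKM sums at 0.25 (limma, adjusted p = 0.0271). Foxf2 and Tgfb2 were too low to be tested.

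**Figure D5:**
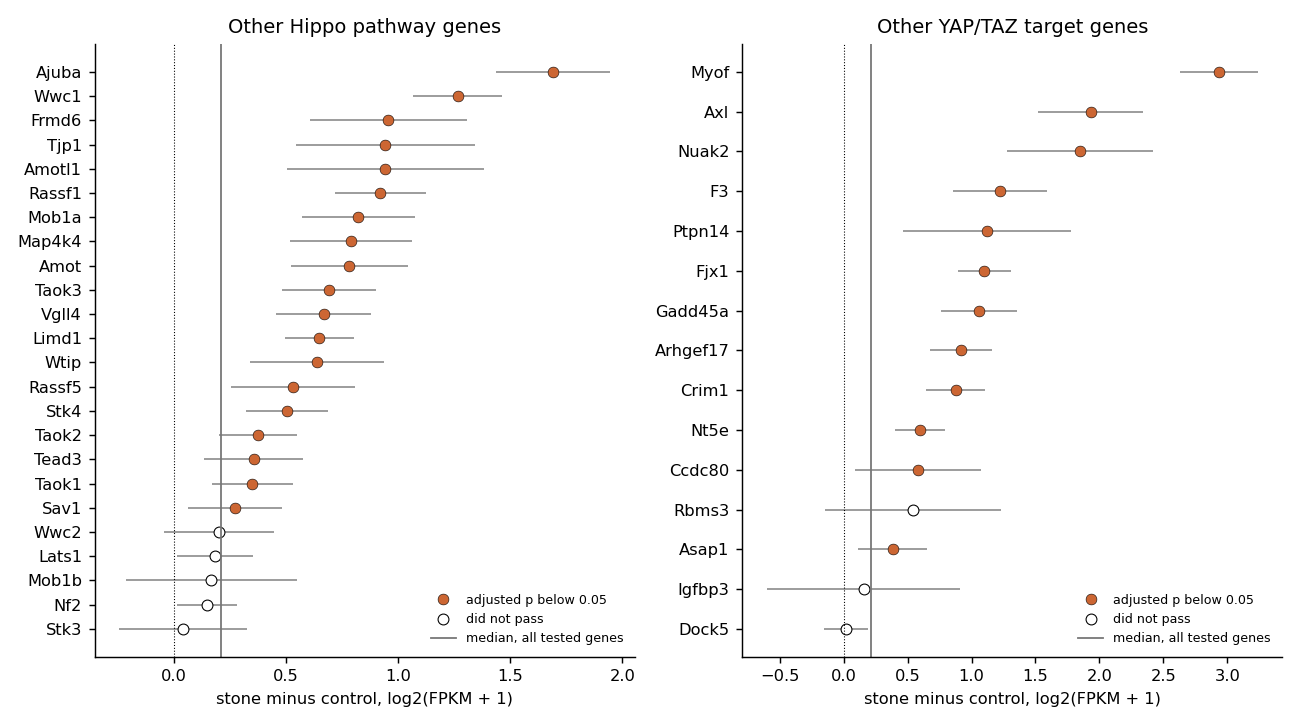
Log2 change (stone minus control) with 95% limma intervals of the tested members of 2 lists, 24 of the 25 other Hippo pathway genes (left) and 15 other YAP/TAZ target genes (right); filled points passed an adjusted p of 0.05. Filled points number 19 and 12, all to the right of 0, with Ajuba and Myof at the top.

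Markers of several cell types moved with the groups, and their counts stand beside 43.5% called higher and 13.9% called lower over all tested genes. Of 9 fibroblast and myofibroblast markers 8 were called higher, and their summed FPKM was 48.9 to 61.7 in control and 143 to 238 in stone samples, with Col1a1 rising by 2.69. All 9 injured tubule markers were called higher (607 to 716 against 8728 to 9116 FPKM in sum). Most of this sum came from Spp1 (means of 556 and 7828 FPKM), the marker of smallest p. Its change of 3.81 was below those of Lcn2 (6.43) and Havcr1 (5.63). Of 8 macrophage markers 7 were called higher (60.7 to 65.1 against 159 to 294 FPKM in sum), among them C1qc. Endothelial markers summed to 95.5, 87.0 and 149 FPKM in the controls and 163, 201 and 241 in the stone kidneys, with 5 of 7 called higher, among them Flt1. Control 3 was the highest control for this sum, as it was for 9 of the 10 genes described here, Ctgf and Amotl2 among them. How many of all tested genes were highest in control 3 was not counted, so no link is drawn from this order. It was also the highest control for the fibroblast, macrophage, thick limb, collecting duct, T and NK cell, and B and plasma cell sums. Control 2 was the highest control for the podocyte, proximal tubule and injured tubule sums. Podocyte markers, of which 5 of 6 were called higher, summed to 46.5 to 66.2 FPKM in control and 81.8 to 99.3 FPKM in stone samples, and Synpo rose by 1.20. Of 6 collecting duct markers 4 were called higher, including Scnn1g, and 1 lower, of 7 proximal tubule markers 4 were called lower, among them Slc22a7, and of 5 thick limb and distal tubule markers 3 were called lower, among them Kcnj1. T and NK cell markers summed to at most 2.87 FPKM in any sample, and B and plasma cell markers, Mzb1 included, to at most 4.8. None of the markers was at 0 in every sample, and the part of these cell types in the values of the YAP/TAZ genes was not tested.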

How the data were processed

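RNA from 6 whole kidney samples was sequenced from libraries in which the second cDNA strand carried dUTP, per the labels' protocols. Reads were aligned with HISAT2 2.0.4 to GRCm38.p6, per the submitters' processing notes, and the quantification program and its annotation are not given in the sources at hand. The deposited values are FPKM made by the authors, so no count model was used. They come as 1 column per sample, and no columns were combined here. Here log2(FPKM + 1) of the 12319 genes averaging 1 FPKM or more was fitted with limma 3.58.1 in R 4.3.3 (trended eBayes, two-sided, Benjamini-Hochberg over all tested genes, threshold 0.05). The fit was tested on simulated data with few changed genes and no change of scaling, so that test does not cover the scaling of these data. Ratios were compared by exact permutation (scipy 1.17.1).

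The members and lists were chosen with earlier results of these data known. Named genes are the 10 members, the up to 5 called genes of smallest p in each direction and the untested genes of the Hippo and target lists, the marker of smallest p in each marker list, and the 3 genes nearest in profile to Cyr61, Ctgf and Ankrd1. 1 gene of the Hippo list that the rule takes is counted but not reported here by name. Other named genes were chosen after their values were seen. Alternatives changed the pseudocount, filter, scaling, trend or replicate block, or left out 1 sample. Coordinates and promoter windows are from RefSeq, GRCm38.p6, and overlapping genes from GENCODE M21.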

Additional observations from a re-analysis of the deposited data

How the results depend on the processing

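Wwtr1, Tead1, Tead2, Ankrd1 and Lats2 kept their direction and their call under each of the 14 alternatives. Yap1 lost its call under 6 of the 14, Amotl2 under 3 and Ctgf under 1, with no change of direction, and the cause was not tested. Cyr61 reversed under 1, at -0.64 without control replicate 1, and ran up to 1.02 when other single samples were left out (without control replicate 3). The number of the 9 tested genes called ran from 5 to 8 when single samples were left out. It was 5 without control replicate 2 (Yap1, Ctgf and Amotl2 lost). In that setting 49.37% of all tested genes were called, against 57.37% with all samples. Of the 9 genes, 6 were called after median-of-ratios scaling, where 48.8% of all tested genes were. After quantile normalization 7 of the 9 were called, where 47.7% of all tested genes were. Without control replicate 1 the number was 7, of which 1 (Cyr61) was lower, where 46.96% of all tested genes were called. Over all tested genes 5668 to 6939 were called with single samples left out, against 7067 with all samples. The Ctgf to Cyr61 log2 ratio ran from 0.35 to 1.66 with single samples left out.

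Replicate numbers are shared between the groups, but the labels do not say that a number marks a pair, and deviations of same-numbered samples from their group means correlated at 0.01, -0.22 and -0.04 across genes. For no sample was the correlation of deviations highest with its own number, and the highest of all was 0.16, between control 3 and stone 2. With the replicate block 6378 genes were called over all tested genes, and 8 of the 9 genes described here. FPKM give no counts, so the depth that limits low genes such as Tead4 and Tead2 is unknown.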
